A study of Mus musculus with 12 samples.

Results

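The genes described here are those of mouse chromosome 12, 390 of the 18193 genes that the arrays measured in 4 murine leukaemia cell lines. A gene counted as a member where the GRCm38.p6 gene table placed it on chromosome 12 and where its probe set, the brightest one that carries only its symbol, averaged above the median level of all probe sets over the 12 arrays (6.948 on the log2 scale). Of 622 genes of the chromosome on the array, 406 passed that level and 16 of these were set aside by name, which left 390. The chromosome was singled out because its genes had been seen to differ in opposite directions in the 2 pairs of lines. Every value of a resistant line against its own parental line is therefore a description without a test.

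The lines came from mice of the inbred BXH-2 strain, in which an inherited retrovirus leads to myeloid leukaemia. Of the parental lines, B117P and B140P, both are labelled sensitive to Ara-C (cytarabine), a cytidine analogue that blocks DNA synthesis. Highly resistant lines belong to them, B117H to the first and B140H to the second. Each line had 3 arrays of total RNA, lettered A, B and C. The labels give 1 text for all 4 lines: culture in ASM medium without Ara-C and exposure to rising Ara-C concentrations. No genotype or dose is given, and each pair rests on 1 parental and 1 resistant line. Separate cultures are not named for a line's arrays, and a p-value here then measures only how far these samples spread, which may be technical. In bulk RNA, fewer cells of a type and less RNA per cell cannot be told apart.

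Mouse chromosome 12 is an autosome whose genes share a position and no single function. It carries the immunoglobulin heavy chain locus at its far end, the imprinted Dlk1-Dio3 cluster, and immediate early and differentiation regulators such as Fos and Id2. Many other genes of the chromosome serve transcription, RNA processing, protein transport, DNA repair and metabolism. The members ran from Rab10os to Sp4, the first and last by position.

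All 12 arrays looked alike in scale, with medians of 118 to 132 intensity units, and arrays of 1 line correlated at 0.988 to 0.997. Array B of B140H stood somewhat apart: the genes of the other chromosomes lay 0.067 log2 units above their means on it, against -0.031 to 0.003 on the other 11 arrays. Without it, 28 members were called in the B140 pair (4 higher, 24 lower) and 166 between the resistant lines (23 higher, 143 lower), where the median was -0.24. The share of all genes called without this array was not taken. Of the myeloid and leukocyte markers 7 of 8 were above the level, among them Ptprc and Spi1, as were all 3 progenitor markers. Of 5 T cell genes 3 were above the level (Cd3e, Cd4 and Cd8a, at log2 levels between 7.36 and 7.57) and Cd3d and Cd3g below it. Of 4 B cell genes 3 were above it (Cd79a, Cd79b and Pax5), and Ms4a1 below. The erythroid gene Klf1 was above the level at 7.12, Gata1 and Alas2 were below it, and of 6 stromal, endothelial and epithelial markers 2 (Pecam1 and Epcam) were above it.

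The promoters below are shown because they belong to members that stand for the shared pattern (Cyria and Papola) and to members that depart from it (Fos and Zfp36l1). Each runs from 250 bases before to 50 after the annotated start, 5′ to 3′ on the gene's strand, from RefSeq (GRCm38.p6). Capitals mark matches on either strand to the GC box GGGCGG, the letters CCAAT, the cyclic AMP half-site TGACG or the TATA box TATAAA. Matches of different motifs may overlap.

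Cyria, chr12:12261927-12262226, plus strand: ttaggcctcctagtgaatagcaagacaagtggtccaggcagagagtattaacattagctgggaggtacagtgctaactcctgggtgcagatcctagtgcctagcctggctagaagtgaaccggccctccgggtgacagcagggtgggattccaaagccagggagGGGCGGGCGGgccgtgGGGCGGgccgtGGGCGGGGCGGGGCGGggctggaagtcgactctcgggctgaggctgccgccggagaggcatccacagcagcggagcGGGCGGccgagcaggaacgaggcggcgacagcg

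Papola, chr12:105784447-105784746, plus strand: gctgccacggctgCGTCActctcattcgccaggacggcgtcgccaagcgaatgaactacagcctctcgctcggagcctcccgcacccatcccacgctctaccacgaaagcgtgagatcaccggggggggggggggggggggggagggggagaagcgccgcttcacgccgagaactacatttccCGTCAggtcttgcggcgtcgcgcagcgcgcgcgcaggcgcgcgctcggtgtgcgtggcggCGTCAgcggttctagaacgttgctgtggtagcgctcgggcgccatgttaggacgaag

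Fos, chr12:85473640-85473939, plus strand: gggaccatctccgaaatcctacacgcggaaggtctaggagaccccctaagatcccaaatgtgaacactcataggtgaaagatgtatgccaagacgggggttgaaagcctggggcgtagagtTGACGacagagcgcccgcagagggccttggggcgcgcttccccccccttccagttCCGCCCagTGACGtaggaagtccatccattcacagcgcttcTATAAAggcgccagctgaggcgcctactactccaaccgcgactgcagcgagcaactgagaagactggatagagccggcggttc

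Zfp36l1, chr12:80112964-80113263, minus strand: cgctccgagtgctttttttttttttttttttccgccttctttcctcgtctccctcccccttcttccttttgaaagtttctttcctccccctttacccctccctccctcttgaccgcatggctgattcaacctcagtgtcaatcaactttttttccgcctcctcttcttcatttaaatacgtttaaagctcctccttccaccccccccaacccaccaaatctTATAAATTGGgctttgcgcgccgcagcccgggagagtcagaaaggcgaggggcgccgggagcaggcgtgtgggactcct

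The Cyria promoter held 7 GC boxes and none of the other letters searched. The Papola promoter held 3 TGACG matches and no GC box. The Fos promoter held 2 TGACG matches, 1 GC box and 1 TATA box, and the Zfp36l1 promoter 1 TATA box and 1 CCAAT match. RefSeq windows were matched for 346 of the 390 members, 433 windows in all. GC boxes stood in 58.2% of them, against 35.7% of all mouse promoters and 61.0% of the promoters of genes above the level on other chromosomes. CCAAT stood in 37.0%, 37.4% and 37.3% of these sets in the same order, TGACG in 30.5%, 20.8% and 30.4%, and TATAAA in 6.47%, 13.6% and 7.14%. The median number of CpG dinucleotides was 21 in the members' windows and 20 in those of genes above the level elsewhere. In these letters the members resembled other genes of similar level rather than the average mouse promoter. A match is a stretch of letters and was not measured as a binding site.

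Across the 12 arrays the members as a set were lowest in B117P and highest in B117H, and in the B140 pair the order of parental and resistant line was turned. For each array the median over members of the log2 deviation from a gene's mean over all arrays was taken. It was -0.152, -0.102 and -0.109 on arrays A, B and C of B117P and 0.120, 0.165 and 0.149 on those of B117H. It was 0.125, 0.002 and 0.049 on the arrays of B140P and -0.099, -0.087 and -0.086 on those of B140H. The arrays of each resistant line did not overlap those of its parental line, while array A of B140P lay within the range of B117H. Line means were -0.12 ± 0.03 in B117P, 0.14 ± 0.02 in B117H, 0.06 ± 0.06 in B140P and -0.09 ± 0.01 in B140H (SD, n = 3 each). From the lowest up, the order of the levels was B117P, B140H, B140P and B117H. After subtraction of each array's median over other chromosomes, the order of the lowest lines turned, with line means of -0.111 in B140H and -0.106 in B117P. Their arrays then overlapped, as did those of B140P and B117H. Among single members, B117H was the highest line in 194 (49.7%) and B117P the lowest in 173 (44.4%). B140P was the highest in 113 and B140H the lowest in 123.

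**Figure D1:**
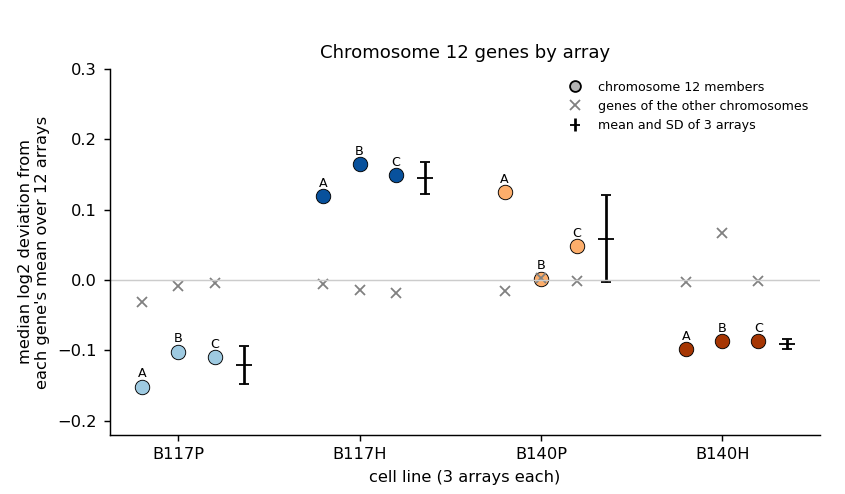
Median log2 deviation of the chromosome 12 members from each gene's mean over 12 arrays (vertical axis, log2 units) for the 3 arrays of each line (points lettered A, B and C); crosses are genes of the other chromosomes, bars the mean and SD of 3 arrays. The B117H points lie between 0.120 and 0.165 above the B117P points at -0.152 to -0.102, and the B140H points, all near -0.09, lie below those of B140P.

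Most members were higher in B117H than in B117P and lower in B140H than in B140P. In the B117 pair 319 of 390 members (81.8%) were higher in the resistant line, with a median of 0.30 (quartiles 0.04 and 0.53), which is 1.23-fold. Over all 11321 genes above the level the median was 0.01 and 52.5% were higher. In the B140 pair 281 members were lower, with a median of -0.15 (quartiles -0.31 and 0.02), against a median of 0.04 over all genes. Both signs together, higher in B117H and lower in B140H, held for 251 members (64.4%) and for 25.02% of all genes. The reverse held for 41 members (10.5%) and 29.8% of all genes.

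The shifts were small for most genes. Only 11 members were more than 2-fold higher in B117H and 2 more than 2-fold lower, and in B140H 1 was more than 2-fold higher and 3 lower. In the limma model (adjusted p under 0.05 over 45037 probe sets) 136 members were called higher in B117H, where 6.65% of all genes were, and 4 lower, where 6.9% of all genes were. In B140H 2 members were called higher (3.97% of all genes) and 37 lower (5.64% of all genes). Both calls together, higher in B117H and lower in B140H, fell to 23 members, 5.90% of them (0.866% of all genes), and the reverse to 0 members (0.53% of all genes). These calls use the contrasts on which the chromosome was chosen, and nothing is read from them. With the array letter as a block, 75 members were called in B140H (5 higher, 70 lower), where 6.28% and 8.38% of all genes were, and 43 in both pairs, where 1.62% of all genes were.

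The counts of calls moved with single arrays more than the medians did. Shares of all genes called were not taken with arrays left out, so a change particular to the members cannot be told from these counts. Without array B of B117H, 93 members were called in the B117 pair. Without array A of B140P 12 were called in the B140 pair, and without array C of B140P 18. Without array B of B140H, the one that stood apart, 28 were called there and the median was -0.15. The 23 members called in both pairs became 5 without array A of B140P, 7 without its array C and 15 without its array B. They became 14 without array B of B117H or of B140H, and 15 without array A or C of B117P. Over all single arrays and letters left out, the median stayed between 0.28 and 0.32 in the B117 pair and between -0.19 and -0.11 in the B140 pair.

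Other chromosomes also had medians away from 0. Among the other 19 chromosomes the median ran from -0.27 (chromosome 16) to 0.09 (chromosome 1) in the B117 pair, so that of chromosome 12 lay above them all. In the B140 pair it ran from -0.23 (chromosome 14) to 0.10 (chromosome 5), a range that includes the members' -0.15.

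**Figure D2:**
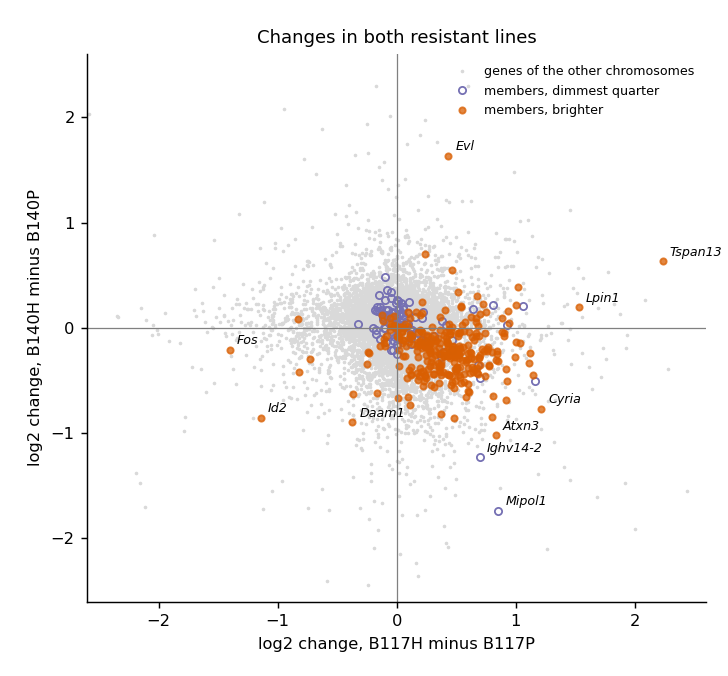
Log2 change in B117H (horizontal axis) against log2 change in B140H (vertical axis), each from its parental line, 1 point per gene; filled circles are the brighter members, open circles the 98 dimmest, grey dots genes of other chromosomes, 28 of which lie beyond the axes. The filled circles gather at the lower right around medians of 0.36 to 0.44 and -0.23 to -0.20, and the open circles near 0.

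The pattern ran along the whole length of the chromosome. In 12 windows of 10 Mb the median was above 0 in all 12 in the B117 pair and below 0 in 11 in the B140 pair. In the B117 pair the window medians ran from 0.19 (49 members from Psmc1 to Rian) to 0.59 (7 members from Scin to Nrcam). The gene-dense windows from Zfp36l1 to Nrxn3 (75 members) and from Ppp2r5c to Sp4 (60 members) had medians of 0.20 and 0.24. In the B140 pair the lowest window, from Klhl28 to Sav1 with 19 members, had a median of -0.28. The 1 window above 0, at 0.09, was the sparse one from Scin to Nrcam. The window from Psmc1 to Rian was the nearest to 0 in both pairs, with -0.04 in B140H. The longest unbroken run of neighbours with a higher value in B117H held 16 members, and the longest run with a lower value in B140H 19.

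**Figure D3:**
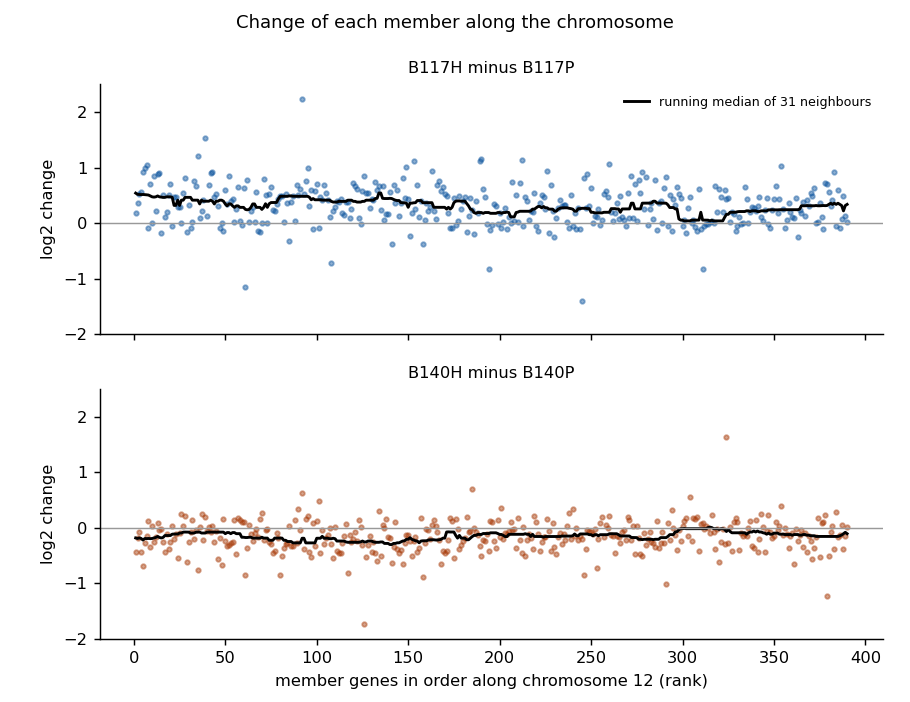
Log2 change of each member (points, vertical axis) by its rank in order along chromosome 12 (horizontal axis), for B117H minus B117P above and B140H minus B140P below; the line is the running median of 31 neighbours. The line stays above 0 along the upper panel, within the points' spread of -1.40 to 2.23, and mostly below 0 in the lower panel.

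The 4 lines kept a similar order in most windows. In the window from Klhl28 to Sav1 the median log2 deviations were -0.22 in B117P, 0.20 in B117H, 0.15 in B140P and -0.08 in B140H. In the window from Scin to Nrcam they were 0.14, 0.54, -0.20 and -0.41, so that here both B117 lines stood above both B140 lines. In the window from Itgb1bp1 to Pxdn, with 21 members, the lines lay closest together apart from B117P, at -0.10, 0.05, 0.02 and 0.01.

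**Figure D4:**
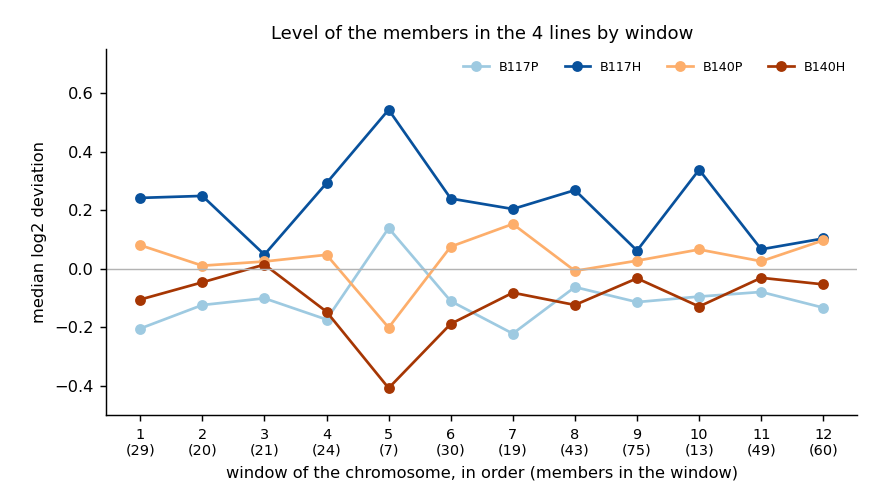
Median log2 deviation of the members from each gene's mean over 12 arrays (vertical axis) in 12 consecutive 10 Mb windows (horizontal axis, number of members in brackets), 1 line per cell line. B117H (dark blue) is the highest line in every window and reaches 0.54 in the window of 7 members, while B140H (dark red) lies below B140P throughout. In that window of 7 members the median of the members' own differences, B140H minus B140P, was all the same above 0, at 0.09.

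The pattern belonged to members of middle and high signal. The members were divided by level into 4 classes of 97 or 98. In the dimmest class (98 members, log2 levels up to 8.15) the median was 0.01 in the B117 pair and 0.05 in the B140 pair. In the 3 brighter classes it was 0.37, 0.44 and 0.36 in the B117 pair and -0.20, -0.23 and -0.21 in the B140 pair. In the brightest class 96.9% of members were higher in B117H and 86.7% lower in B140H. All genes of the same level ranges had medians between -0.01 and 0.04 in the B117 pair and between 0.02 and 0.06 in the B140 pair. The dimmest class's median in B140H turned to -0.03 without array B of B140H. The array summary compresses differences among dim probe sets, and its part in this was not tested.

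Genes and probe sets that the rule had kept out followed the same division by signal. The 216 genes of the chromosome at or below the level had medians of 0.00 and 0.09 in the B117 and B140 pair. The members' 304 other probe sets above the level, from 177 genes, had medians of 0.35 and -0.15. Of these, 266 (87.5%) were higher in B117H and 231 (76.0%) lower in B140H. They measure the same transcripts on the same arrays and are no independent samples. The 222 other probe sets at or below the level had medians of 0.03 and 0.03. Of the 16 genes set aside, 15 were higher in B117H and 12 lower in B140H. Just inside the level, Fam181a, Cys1 and Amn differed by -0.18, 0.04 and 0.47 in the B117 pair and by 0.17, 0.14 and -0.21 in the B140 pair. Just outside it, Dio3os, Slc26a4 and Btbd6 differed by 0.00, 0.10 and 0.19 and by 0.17, 0.04 and -0.03.

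Among the members called in both pairs, Mipol1 (chr12:57230425-57457241, GRCm38.p6) had the widest swing. Its intensities on arrays A, B and C were 78.7, 99.4 and 79.9 in B117P, 161, 159 and 146 in B117H, 299, 299.9 and 242 in B140P and 99.99, 65.5 and 86.9 in B140H. Parental and resistant arrays did not overlap in either pair, and B140H came down to the level of B117P. The fitted log2 difference was 0.85 (SE 0.15) in the B117 pair and -1.74 (SE 0.15) in the B140 pair. All arrays of B117P and B140H were at or below the members' level limit. Against that limit the brighter line was at least 0.34 log2 units higher in the B117 pair and at least 1.18 higher in the B140 pair.

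Cyria encodes a protein that binds the small GTPase Rac1. Its intensities were 306, 441 and 363 in B117P, 753, 845 and 965 in B117H, 1236, 855 and 1142 in B140P and 592, 562 and 733 in B140H. Both pairs were without overlap, in opposite directions, and the B117H arrays overlapped those of B140P. The log2 differences were 1.21 (SE 0.17) and -0.77 (SE 0.17).

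Atxn3 (chr12:101918901-101959121) encodes a deubiquitinating enzyme with a polyglutamine stretch. It read 519, 795 and 815 in B117P, 1070.4, 1243 and 1425 in B117H, 1072, 1209.5 and 1328 in B140P and 571, 451 and 799 in B140H. The arrays of B117H and B140P covered much the same range, as did those of B117P and B140H. The log2 differences were 0.83 (SE 0.21) and -1.02 (SE 0.21). Sipa1l1, which encodes a GTPase-activating protein for Rap, read 512, 530.4 and 462 in B117P, 1019.6, 1225 and 1085 in B117H, 588, 541 and 569 in B140P and 419, 407 and 417 in B140H. Its B117H arrays stood clear of the other 9, and its B140H arrays were the lowest.

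Papola, the poly(A) polymerase of messenger RNA, read 1581, 1268 and 1449.8 in B117P, 2334, 2254 and 1958 in B117H, 3044, 2298 and 2343 in B140P and 1882, 1485 and 1653 in B140H. The differences were 0.61 (SE 0.14) and -0.61 (SE 0.14). Togaram1, a microtubule protein of the cilium, differed by 0.60 (SE 0.15) and -0.60 (SE 0.15). Neither gene's parental and resistant arrays overlapped in either pair.

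The other members among the 10 widest opposite calls were Ighv14-2, Rdh12, Jdp2 and Foxn3. Ighv14-2, an immunoglobulin heavy chain variable segment, read 65.1, 64.9 and 70.3 in B117P, 88.7, 113 and 128 in B117H, 405, 242 and 277 in B140P and 118, 114 and 156 in B140H. All its B117P arrays were at or below the members' level limit. The mean of its B117H arrays (6.78 on the log2 scale) also lay below that limit, so its B117 difference is one between dim values. Rdh12, a retinal reductase, differed by 1.16 (SE 0.10) and -0.50 (SE 0.10). Its neighbour Rdh11, also a retinal reductase, was 1.11 higher in B117H, and its B140 arrays overlapped. Jdp2, a leucine zipper partner of Jun, differed by 0.80 (SE 0.19) and -0.85 (SE 0.19), and the forkhead gene Foxn3 by 0.93 (SE 0.11) and -0.51 (SE 0.11).

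Several of these calls ended when one or another single array was left out, or when a gene's other probe sets were averaged in. Without array B of B140H, 5 of the 10 widest opposite calls were no longer called in the B140 pair. These were Cyria (-0.69), Atxn3 (-0.83), Jdp2 (-0.75), Papola (-0.53) and Togaram1 (-0.49). Without array A of B140P the B140 calls of Cyria, Rdh12, Sipa1l1, Jdp2, Foxn3, Papola and Togaram1 ended. Without array C of B140P those of Cyria, Rdh12, Sipa1l1, Atxn3, Jdp2, Foxn3 and Togaram1 ended. When all probe sets of a gene were averaged, Papola (0.27 and -0.29) and Togaram1 (0.29 and -0.21) were called in neither pair. By the same average the B117 call of Mipol1 ended (0.31), as did the B140 calls of Cyria (-0.29) and Sipa1l1 (-0.09). The 4 other probe sets of Papola ran from -0.06 to 0.55 in the B117 pair and from -0.34 to -0.13 in the B140 pair. The B117 call of Ighv14-2 ended in 10 of 26 alternative settings, among them median-centring of arrays. The B140 call ended in 13 of them for Togaram1, 9 for Cyria, 8 for Papola, 7 for Foxn3 and 5 for Atxn3. For Rdh12, Jdp2 and Sipa1l1 it ended in 6, and for Ighv14-2 in 1. The B117 call ended in 8 for Togaram1, in 6 for Papola, Jdp2 and Atxn3, and in 2 for Mipol1. The B140 call of Mipol1 and the B117 calls of Cyria, Rdh12, Sipa1l1 and Foxn3 held in all 26.

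**Figure D5:**
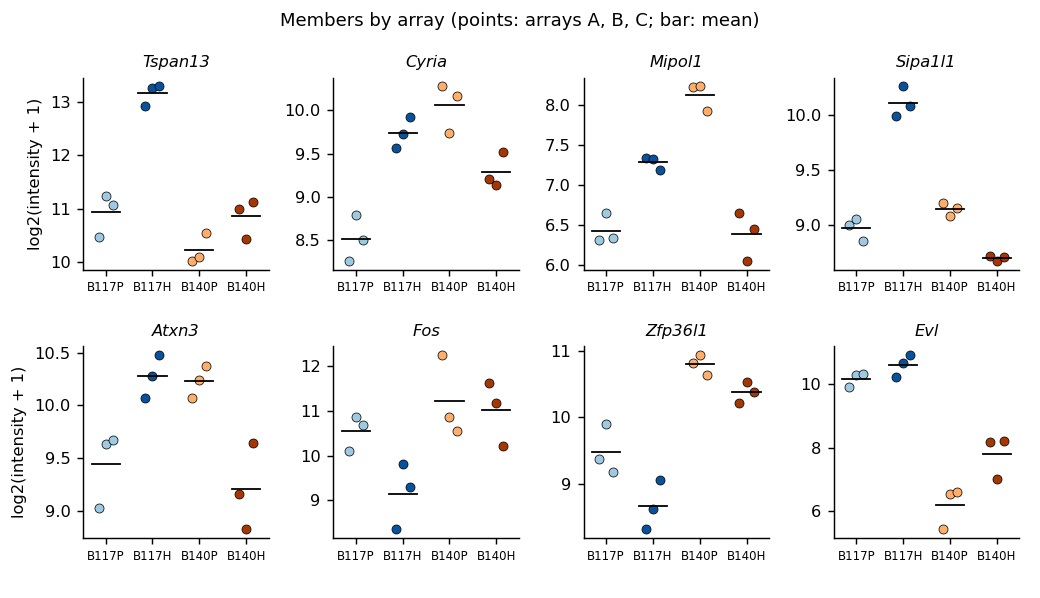
Log2(intensity + 1) of 8 members on each array (points, arrays A, B and C) in the 4 lines, with the mean of 3 arrays as a bar; each panel has its own vertical axis. Cyria, Mipol1, Sipa1l1 and Atxn3 are higher in B117H and lower in B140H than in the parental line, while Tspan13, Fos, Zfp36l1 and Evl are not.

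Some of the largest values lay outside the shared pattern. Tspan13 (chr12:36014555-36042478), a tetraspanin of the cell membrane, had the largest difference of the B117 pair. It read 1421, 2419 and 2156 in B117P, 7771, 9904 and 10045 in B117H, 1037, 1096 and 1490.0 in B140P and 2051, 1377 and 2245 in B140H, so that the B117H arrays stood far above all others while B140P and B140H overlapped. The log2 differences were 2.23 (SE 0.22) and 0.63 (SE 0.22), both upward. A second probe set of Tspan13 gave 2.35 and 0.73. Lpin1, a phosphatidate phosphatase of lipid synthesis, read 443, 574 and 343 in B117P, 1254, 1115 and 1507 in B117H, 88.9, 103 and 108 in B140P and 92.2, 125 and 129.5 in B140H. It was 1.53 higher in B117H and at or below the members' level limit on all 3 arrays of B140P and 1 of B140H. Frmd6, a FERM domain protein linked to Hippo signalling, and Noxred1 were 1.12 and 1.06 higher in B117H, with -0.24 and 0.21 in B140H.

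The 4 members called lower in B117H were Id2, Syne3, Zfp36l1 and Nubpl. Id2, an inhibitor of DNA binding by helix-loop-helix factors, read 1215, 2052 and 1798 in B117P, 574, 696 and 1036 in B117H, 1252, 519 and 943 in B140P and 583, 348 and 511 in B140H. It was -1.14 (SE 0.32) in the B117 pair, where the arrays did not overlap, and -0.85 (SE 0.32) in the B140 pair, where they did. Zfp36l1, which binds AU-rich elements and speeds messenger RNA decay, read 665, 953 and 577 in B117P, 317, 391 and 532 in B117H, 1802, 1958 and 1591 in B140P and 1194, 1483 and 1337 in B140H, which is lower in the resistant line of both pairs. Syne3, nesprin-3 of the nuclear envelope, was -0.83 (SE 0.13), and Nubpl, an assembly factor of respiratory complex I, -0.73 (SE 0.13). Over 26 alternative settings the B117 call of Id2 ended in 12, among them median-centring of arrays, that of Zfp36l1 in 6 and that of Nubpl in 2. The other probe sets of Id2 were also called lower in B117H, at -1.04 and, below the level limit, at -0.75. The 2 members called higher in B140H were Evl, an actin regulator of the Ena/VASP family, at 1.63 (SE 0.34) (its B140P arrays were at or below the level limit, and the call ended in 6 of the settings) and Tmem229b at 0.70 (SE 0.11).

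The members lower in B140H included several signalling genes. Prkar2b, a regulatory subunit of protein kinase A, read 1029.7, 1501 and 1269 in B117P, 1748, 1817 and 1680.1 in B117H, 812, 703 and 598 in B140P and 395, 396 and 368 in B140H. B140H was the lowest line without overlap. The log2 difference was -0.85 (SE 0.14) there and 0.48 (SE 0.14) in the B117 pair. Ppp2r3c, a regulatory subunit of protein phosphatase 2A, differed by -0.82 (SE 0.11) in B140H, and Daam1, a formin, by -0.89 (SE 0.16). Daam1 was also lower in B117H by value, at -0.37. Its 2 other probe sets were at -0.39 and -0.80 in B117H, the second called, and at 0.11 and 0.16 in B140H. With the mean of its probe sets Daam1 was called lower in B117H (-0.52), and its B140 call ended (-0.21).

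Members were grouped by role into 11 lists. As a base for their counts, 34.9% of all members were called higher and 1.03% lower in B117H, and 0.513% higher and 9.49% lower in B140H. The shares over all genes are those given above, 6.65% and 6.9%, then 3.97% and 5.64%. The lists are described by counts, and nothing particular to a list is read from them. Of 28 transcription factors, 15 were called higher and 1 lower in B117H, and 0 higher and 4 lower in B140H, with medians of 0.48 and -0.27. Besides Jdp2 and Foxn3, Gtf2a1, a subunit of the general factor TFIIA, was 0.84 higher in B117H and differed by -0.22 in B140H. The 11 chromatin regulators had medians of 0.63 and -0.14, with 6 called higher in B117H and 0 called either way in B140H. Dnmt3a, a de novo DNA methyltransferase, read 660.2, 570.4 and 684 in B117P, 1127, 1380.1 and 1439.7 in B117H, 756, 832 and 913 in B140P and 703, 742 and 824 in B140H. Its B117H arrays stood above the other 9, and B140P and B140H overlapped. Asxl2, a Polycomb-associated protein, differed by 0.92 (SE 0.20) and -0.69 (SE 0.20) and was called lower in B140H with the letter as a block. Its other probe sets ran from -0.25 to 0.05 in the B140 pair without a call, and its B117 call ended in 3 alternative settings. The coactivator Ncoa1 differed by 0.88 and 0.09.

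Of 21 RNA processing genes 7 were called higher and 1 lower in B117H, and 0 higher and 3 lower in B140H, with medians of 0.30 and -0.17, near the share of all members. Dicer1, which cuts microRNA precursors, differed by 0.62 (SE 0.11) and -0.43 (SE 0.11), and its B140 call ended in 14 of the 26 settings, while the splicing factor Prpf39 was higher by value in both, at 0.67 and 0.30. Of 18 genes of DNA repair and cell division 8 were called higher in B117H and 1 lower in B140H, with medians of 0.47 and -0.23. Mnat1, a subunit of the CDK-activating kinase, differed by 0.94 (SE 0.09) and 0.05 (SE 0.09). Tdp1, which removes topoisomerase adducts from DNA, differed by 0.83 and -0.31, and Fancm of the Fanconi anaemia pathway by 0.66 and 0.06.

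All 25 signalling genes had a higher value in B117H, 10 of them called, and in B140H 1 (Evl) was called higher and 5 lower. Their medians were 0.43 and -0.27. Map4k5, a kinase upstream of JNK, was 1.01 higher in B117H and at -0.14 in B140H. Of 26 genes of metabolism and mitochondria 10 were called higher in B117H and 0 either way in B140H, with medians of 0.31 and -0.12. Entpd5, an endoplasmic reticulum nucleotidase, differed by 0.94 and 0.16, and Pnpla8, a phospholipase, by 0.70 and 0.13. The 24 genes of the secretory pathway and lysosome had 7 called higher in B117H and 3 lower in B140H, with medians of 0.39 and -0.16. Examples were Zfyve26 at 0.62 and -0.23 and the sorting nexin Snx13 at 0.61 and -0.04.

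The smaller lists held few calls. The 3 proteasome subunits Psma6, Psma3 and Psmc1 had 0 calls in either pair and medians of 0.25 and -0.17. Of 7 genes of the ribosome and translation 2 were called higher in B117H (Nemf of ribosome quality control at 0.60 and the initiation factor subunit Eif2b2 at 0.51) and 1 lower in B140H (the initiation factor Eif5 at -0.45). The 8 blood cell genes had medians of 0.08 and -0.05, with Id2 called lower and Ighm called higher in B117H. Ighm, the constant region of the immunoglobulin mu chain, read 5102, 6128 and 5836 in B117P, 8706, 11416 and 8334 in B117H, 7853, 8778 and 9306 in B140P and 9245, 10961 and 10181 in B140H. In the imprinted cluster Meg3 and Rian were members, with values of -0.13 and -0.05 in the B117 pair and 0.17 and 0.10 in the B140 pair and 0 calls. Dlk1 and Mirg were below the level.

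The same genes were also compared between the 2 lineages, which the rule did not use singly, though the difference between both lineage comparisons is fixed by the choice of the chromosome. These share their arrays with the pairs above. Between the parental lines 120 members were called higher in B140P (17.9% of all genes) and 35 lower (16.8% of all genes), with a median of 0.19 against 0.02 over all genes. Between the resistant lines 22 were called higher in B140H (19.2% of all genes) and 154 lower (19.4% of all genes), with a median of -0.23 against 0.05. Thus 30.8% of members were called higher in B140P and 39.5% lower in B140H. Other chromosomes reached medians of 0.20 (chromosome 9) between the parental lines and -0.33 (chromosome 1) between the resistant lines. Leaving out all C arrays gave 81 and 107 calls in the 2 comparisons, and no single array moved these counts by more than 1.5 times. Some lineage markers differed too: the myeloid gene Mpo had mean log2 levels of 14.62 in B117P, 14.04 in B117H, 9.54 in B140P and 7.13 in B140H. Spi1 hardly differed, at 11.52, 11.19, 11.31 and 11.38 in the same order. Cd34 of progenitors had 12.71, 12.82, 5.36 and 5.22, and Kit followed it. The progenitor marker Flt3 went the other way, with 10.85, 11.29, 13.19 and 13.40. Cd79b of B cells had 6.74, 5.99, 10.84 and 11.43, and Cd79a followed it. The B cell markers Pax5 (7.42, 7.43, 7.44 and 7.70) and Ms4a1 (6.42, 6.43, 6.42 and 6.30) hardly differed. The markers' part in the members' values was not tested.

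By each gene's brightest probe set, the 3 largest differences between the parental lines were in Scin, Evl and Actn1, which encode actin-binding proteins. Scin (chr12:40059769-40134228), an actin-severing protein, read 2332, 2636 and 2239 in B117P, 4884, 5032 and 4474 in B117H, 84.3, 86.4 and 86.6 in B140P and 104, 87.3 and 110.0 in B140H. All 6 B140 arrays were at or below the members' level limit, so Scin passed that level only through the B117 lines. Against the limit it was at least 19.4-fold higher in B117P than in B140P, and at least 38.8-fold higher in B117H than in B140H. Actn1, the cross-linker alpha-actinin, read 1391, 1546 and 1379 in B117P, 1453, 1391 and 1387 in B117H, 87.5, 87.9 and 102 in B140P and 92.9, 118 and 90.6 in B140H. Its B140 arrays were also all at or below the limit, and it was at least 11.6-fold higher in B117P and at least 11.4-fold higher in B117H. It differed by -0.03 and 0.11 within the lineages. Its other probe sets gave smaller lineage differences, of -0.91 and -0.68 for one and -1.32 and -1.38 for the other.

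Evl read 964, 1261 and 1273 in B117P, 1207, 1628 and 1939 in B117H, 41.6, 90.8 and 94.9 in B140P and 288, 129 and 298 in B140H. Its B140P arrays were at or below the limit, against which B117P was at least 9.37-fold higher. Between the resistant lines it differed by -2.80 (SE 0.34) (limma adjusted p = 4.59e-05). Its second brightest probe set gave -2.19 and -1.91. Tnfaip2, which is named after its values were seen, had a probe set with wider differences than these by value, -5.46 and -5.89, that is not its brightest. The interferon-induced gene Ifi27l2a was lower in both B140 lines, with log2 differences of -2.14 and -2.06 (limma adjusted p = 2.53e-06 and 3.27e-06). These genes had a lineage level that outweighed their difference within either pair.

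Lpin1 and Rnf144a, an E3 ubiquitin ligase, were lower in the B140 lines. Lpin1 was at least 3.60-fold higher in B117P than the limit below which B140P lay. Between the resistant lines its fitted difference was -3.48 (SE 0.19). The mean of its B140H arrays (6.85 on the log2 scale) also lay below the limit, so Lpin1 passed the level only through the B117 lines. That fitted difference therefore rests on dim B140H values. Rnf144a differed by -1.99 (SE 0.13) between the parental and by -3.13 (SE 0.13) between the resistant lines (limma adjusted p = 1.75e-07 and 2.16e-09). Frmd6 differed by -3.49 (SE 0.18) between the resistant lines (limma adjusted p = 1.08e-08).

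More than 2-fold differences numbered 13 higher and 14 lower in B140P, and 5 higher and 32 lower in B140H. Rab10os, an RNA annotated opposite Rab10, read 199, 157 and 191 in B117P, 251, 172 and 198 in B117H, 969.8, 742 and 799.9 in B140P and 651, 624 and 579 in B140H. It was 2.19 higher in B140P and 1.59 higher in B140H (limma adjusted p = 1.86e-07 and 3.54e-06). Smoc1, a secreted matrix protein, and Eipr1, a factor of endosomal recycling, had nearly equal lineage differences in the parental and the resistant lines. For Smoc1 it was 1.19 and 1.19 (limma adjusted p = 0.000155 and 0.000137), and for Eipr1 1.09 and 1.06 (limma adjusted p = 5.06e-06 and 5.85e-06). Taf1b, a subunit of the RNA polymerase I factor SL1, was 1.38 and 0.66 higher (limma adjusted p = 1.89e-05 and 0.00596), the second with an adjusted p of 0.0752 without all C arrays.

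In members higher in B117H and lower in B140H, the excess of B140 over B117 is by arithmetic larger between parental than resistant lines. The values of such members below are therefore a description. Mipol1 was higher in B140P than in B117P by at least 1.18 log2 units, and higher in B117H than in B140H by at least 0.34, both against the level limit. With the mean of its probe sets the resistant lines differed by -0.19 (limma adjusted p = 0.237). Cyria was 1.54 higher in B140P, and between the resistant lines it differed by -0.44 (SE 0.17) and was not called. Without array C of B140H that became -0.56 and was called. Ighv14-2 was at least 1.29 log2 units higher in B140P than the level limit, at or below which all B117P arrays lay, and differed by 0.23 (SE 0.19) between the resistant lines (adjusted p = 0.463), where 2 of 3 arrays of each line were at or below the limit.

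Zfp36l1 and Fos were the members with the largest excess in B140H over B117H. Zfp36l1 was 1.31 higher in B140P and 1.72 higher in B140H than in the matching B117 line (limma adjusted p = 0.000334 and 2.86e-05). Fos, an immediate early transcription factor, read 1102, 1858 and 1659 in B117P, 325, 894 and 629 in B117H, 4882, 1878 and 1495 in B140P and 3180.0, 2334 and 1195 in B140H. Its arrays of 1 line varied more than 2-fold in every line but B117P. The difference between the resistant lines was 1.86 (SE 0.47) (limma adjusted p = 0.0116). The call ended without array A of B117H (1.46, adjusted p = 0.0564), without array A of B140H (1.55, adjusted p = 0.0528) and without all B arrays (2.10, adjusted p = 0.0734). In the B117 pair it was -1.40 (SE 0.47), with no overlap of arrays, and it was not among the called members there.

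The shares of all members behind the next counts are 30.8% called higher and 8.97% lower in B140P, and 5.64% higher and 39.5% lower in B140H, beside 17.9%, 16.8%, 19.2% and 19.4% of all genes. By role, most lists had more members higher than lower in B140P and more lower than higher in B140H. Of the transcription factors 12 were called higher and 1 lower in B140P, and 3 higher and 10 lower in B140H. Of the RNA processing genes 10 were higher and 0 lower in B140P, and 3 higher and 7 lower in B140H. Of the DNA repair and division genes 10 were higher and 1 lower in B140P, and 1 higher and 7 lower in B140H. Of the signalling genes 8 were higher and 2 lower in B140P, and 0 higher and 12 lower in B140H. The chromatin regulators had 5 higher and 1 lower in B140P and 0 higher and 6 lower in B140H, the secretory and lysosomal genes 6 and 0, then 0 and 11. Metabolism had 8 and 4, then 2 and 10, translation 3 and 0, then 0 and 3, and the proteasome 1 and 0, then 0 and 1. The blood cell genes had 1 called higher and 4 lower in B140P and 0 higher and 4 lower in B140H, at medians of -0.81 and -0.82. Among them Batf, a leucine zipper factor of lymphocytes that was chosen after its values were seen, read 657, 499 and 594 in B117P, 660.4, 721 and 709.6 in B117H, 220.0, 262 and 195 in B140P and 164, 164 and 186 in B140H.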

How the data were processed

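Total RNA was measured on 12 one-colour arrays, 3 per line. The deposited values are probe-set intensities on a linear scale, read as such from their range of 7.65 to 36675, and made with RMA per the submitters' processing notes. The RMA version is not given in the sources used here. Values were analysed as log2(value + 1). Of 45101 probe sets, 64 controls were left out. The platform annotation gave 34945 probe sets 1 symbol, 932 several (never named from) and 9160 none. Gene positions (18029 of 18193 genes) came from the GRCm38.p6 table. No detection calls came with the values.

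The model was limma 3.58.1 (R 4.3.3; lmFit, contrasts.fit, eBayes) on all 12 arrays with 1 coefficient per line, two-sided, with Benjamini-Hochberg adjustment over 45037 probe sets and a threshold of 0.05. The prior had 4.65 and the residual 8 degrees of freedom, and the median residual SD was 0.154. The number of arrays limits the precision. The script was tested on simulated data. Background percentages are over the 11321 genes above the level.

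Letters were checked as pairs by correlating deviations from line means. For A, B and C this gave 0.555, 0.028 and 0.392 in the B117 pair and 0.587, 0.360 and 0.560 in the B140 pair. It gave 0.499, 0.131 and 0.414 between parental lines and 0.455, 0.349 and 0.532 between resistant lines. The labels do not state what a letter stands for. So few correlations cannot decide whether letters pair arrays in any comparison. The main model left the letter out, and the letter as a block was an alternative. With the block, members called rose from 39 to 75 in the B140 pair and from 23 to 43 in both pairs. The shares of all genes called rose there as well.

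Members, lists and tests were chosen with earlier results of these data known. Named are, per pair, the 8 called members with the largest difference each way and arrays apart, per lineage comparison 5 each way, the 10 widest opposite calls, 2 to 4 examples per list and 3 genes on each side of the level. Predicted genes were left out.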

Additional observations from a re-analysis of the deposited data

Results flagged for a closer look

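The difference of the B140 change minus the B117 change was below 0 past the limma threshold in 161 members and above 0 in 1, together 41.5% of members, against 15.2% of all genes above the level. The chromosome was chosen on this difference, so these values are a description. Among the 33 members named by rule, 20 had such a difference. In Mipol1 the B140 change lay below the B117 change by a difference of -2.589, in Cyria of -1.982, in Ighv14-2 of -1.923 and in Atxn3 of -1.852. It was -1.661 in Rdh12, -1.652 in Jdp2, -1.6 in Tspan13, -1.592 in Sipa1l1, -1.449 in Rdh11 and -1.436 in Foxn3. It was -1.36 in Frmd6, -1.336 in Prkar2b, -1.335 in Lpin1, -1.217 in Papola, -1.197 in Togaram1 and -1.188 in Ppp2r3c. It was -1.134 in Rnf144a, -0.8527 in Noxred1 and -0.7794 in Scin. Syne3 was the 1 member above 0, at 0.9139. In Tspan13, Lpin1, Noxred1 and Scin both changes were upward by value and differed in size only. Mipol1, Lpin1, Scin and Ighv14-2 were at or below the members' level limit on all arrays of at least 1 line, so their differences rest on fitted values there.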

How the results depend on the processing

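The medians over all members kept their sign under the alternatives run. With no level filter (606 genes) they were 0.108 and -0.042 in the B117 and B140 pair and 0.073 and -0.041 between parental and between resistant lines. Above a level of 8 (300 genes) they were 0.39, -0.21, 0.29 and -0.34. Averaging all probe sets of a gene gave 0.26 in the B117 pair and -0.19 between the resistant lines, and median-centring of arrays gave -0.19 in the B140 pair. Centring moved a comparison by at most 0.044. With the letter as a replicate block 75 members were called in the B140 pair, 179 in the B117 pair, 189 and 201 between lineages and 43 in both pairs. With the B140 arrays alone 13 were called. At an adjusted p under 0.01 82 and 10 were called in the pairs and 2 in both. Beside the main model, shares over all genes were taken only with the block, for the B140 pair and for both pairs. The other counts here describe the members alone. Leaving out single arrays or letters gave 40 to 148 calls in the B117 pair, 5 to 42 in the B140 pair, 81 to 170 between parental lines, 107 to 181 between resistant lines and 0 to 20 in both pairs. The medians then ran from 0.28 to 0.32, -0.19 to -0.11, 0.12 to 0.24 and -0.25 to -0.22. Leaving out a letter removes 4 arrays, and without all A, B or C arrays 90, 66 and 40 were called in the B117 pair and 6, 5 and 6 in the B140 pair. The dimmest class's B140 median of 0.05 turned to -0.029 above a level of 8 (8 genes), -0.034 without array B of B140H and -0.027 without all B arrays. For the last 2 the cause was not tested. Its B117 median of 0.006 became -0.023 without all A arrays, -0.012 without array A of B117P or of B117H, and -0.003 with quantile normalization. Signal near background limits what the dim members can show.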
